A study of Rattus norvegicus with 6 samples.

Results

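The 10 annexin genes Anxa1, Anxa2, Anxa3, Anxa4, Anxa5, Anxa6, Anxa7, Anxa10, Anxa11 and Anxa13 were followed in the renal cortex of rats after potassium bromate. Every array probe whose transcript accession is paired with one of these symbols in the RefSeq gene table was taken, which gave 19 of the 61537 probes on the array and 10 of the 15645 gene symbols that could be named. Anxa8, which is not among the 10, had 2 probes that were not well above background on any of the 6 arrays, and Anxa9 had no named probe. The family was chosen on the measured difference between bromate and water on these same arrays, which had been seen when it was proposed. Those differences and their calls are therefore given as a description and support nothing by themselves.

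Annexins bind acidic phospholipids of membranes when calcium rises, each through a conserved core of repeats and a variable amino-terminal tail that sets its partners. They take part in vesicle traffic, in the link between membrane and actin and in the sealing of torn plasma membrane. Some act outside the cell, in blood clotting, fibrinolysis and the damping of inflammation. Which kidney cells carry each member was not measured here.

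The animals were male Sprague-Dawley rats, stock Crl:CD(SD), bought at 5 weeks of age and kept on a basal diet. Over 4 weeks 3 rats received water and 3 received potassium bromate, an oxidising salt that is toxic to the kidney, at 100 mg/kg/day. Cy3-labelled RNA of the renal cortex of each animal went onto 1 array, so n = 3 animals per group throughout. A level is the log2 signal of a probe after the 75th percentile of its array has been set to 0. A difference is bromate minus water on the log2 scale, with its standard error after ±. A probe "rose" or "fell" when limma gave an adjusted p under 0.05 over all 37781 probes tested. Levels of different probes are not comparable with each other, because probes differ in how brightly they bind.

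Between 57.9% and 63.1% of the probes of an array were well above background and 0 were saturated. The correlation across probes, which are not independent replicates, was at least 0.983 between arrays of a group and at most 0.977 between arrays of different groups. A first slide carried water replicate 1 alone and a second slide the remaining 5 arrays. All 7 markers of the proximal tubule, which makes up most of the cortex, were measured, and their summed relative signal was 1220 to 1245 in water and 841 to 935 in bromate, with Slc34a1, Slc22a8, Slc5a2 and Lrp2 lower. Of the measured markers, 2 of 5 of collecting duct principal cells, 1 of 5 of podocytes and 1 of 2 of urothelium fell, against 8.54% of all genes with a symbol, while 0 of 3 of lymphocytes passed by limma (0 also at an unadjusted p under 0.05). The summed signal of the collecting duct markers, of which Scnn1b and Avpr2 fell, was 134 to 201 in water and 146 to 267 in bromate. Such a sum weighs bright probes most, and the median difference of the 5 markers was -0.53. Aqp2, Aqp3 and Scnn1g did not pass, with differences of 0.40, 0.03 and -0.53. The arrays limit the precision by their number, and in whole cortex fewer cells of a type and less RNA per cell cannot be told apart.

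Under bromate 5 of the 10 annexin genes rose with every one of their probes: Anxa1, Anxa2, Anxa3, Anxa5 and Anxa7. Anxa2 had the largest difference, 3.80-fold by its brighter probe, and Anxa1 the smallest of the 5, 1.93-fold by its brighter probe. Anxa4, Anxa6, Anxa11 and Anxa13 did not pass, and Anxa10, near background, fell. Counted by probe, 11 of 19 rose against 7.19% of all probes, 1 fell against 7.60%, and 7 did not pass. All 3 bromate values lay above all 3 water values in 13 of the 19 probes against 20.0% of all probes, and below them in 2 against 21.1%. The median difference was 0.95 over the 19 probes and -0.02 over all probes. Since this contrast was in view when the family was proposed, these counts are not read further. The number of probes that rose was 7 without water replicate 2, where 2.31% of all probes rose, and 9 to 11 without any other single array, where 2.52% to 5.46% did. Among the 5 arrays of 1 slide, which is also the comparison with slide as a block, 10 annexin probes rose, with differences of 0.75 to 1.95. The dimmest probe of Anxa3 (0.98, adjusted p = 0.0632) and Anxa10 (-0.98, adjusted p = 0.0778) did not pass there.

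**Figure D1:**
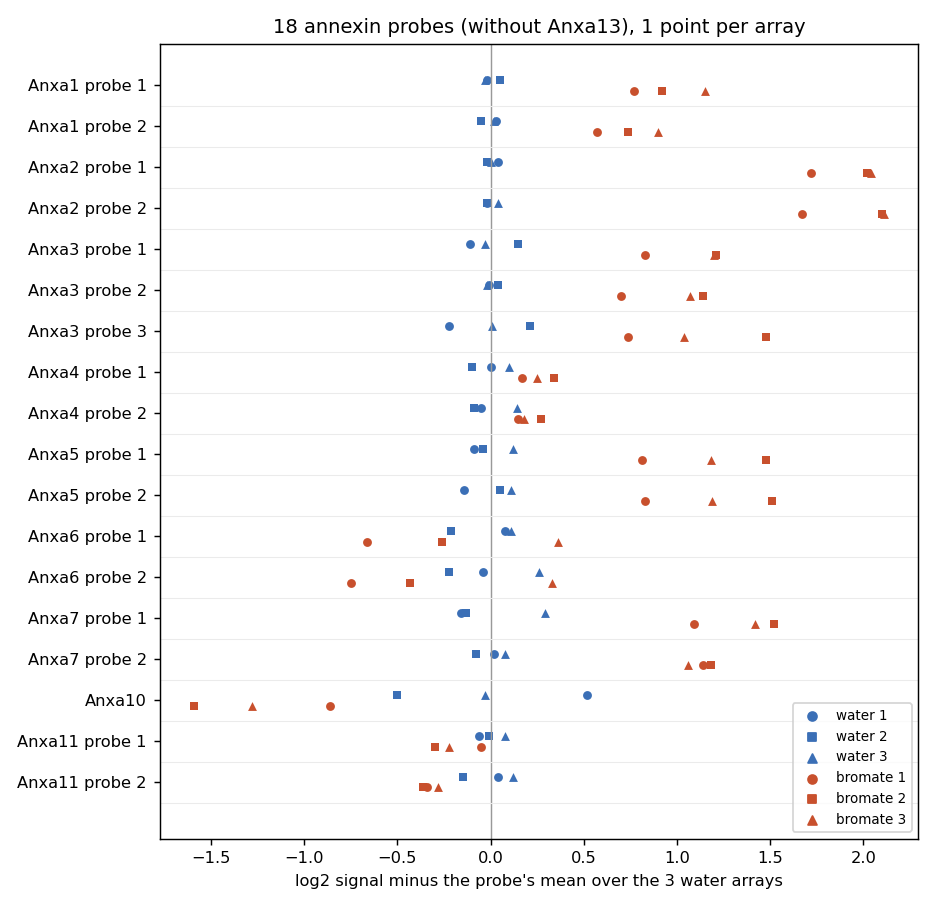
Level of 18 annexin probes on each array (horizontal axis, log2 signal minus the probe's mean over the 3 water arrays), with blue points for water, red points for bromate and a marker shape for each replicate; Anxa13 is left out for its wider range. The bromate points of Anxa1, Anxa2, Anxa3, Anxa5 and Anxa7 lie right of all water points, with gaps of 0.52 to 1.68, while those of Anxa6 spread across the water points.

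Anxa2 encodes the annexin that joins S100a10 in a complex under the plasma membrane and, at the cell surface, binds plasminogen and its tissue activator. Its brighter probe read 3.69, 3.63 and 3.65 on water replicates 1 to 3 and 5.37, 5.67 and 5.69 on bromate replicates 1 to 3. The water animals were nearly identical, and the lowest bromate value stood 1.68 above the highest water value. The difference was 1.92 ± 0.11 (adjusted p = 0.00112). The dimmer probe gave the same picture, with 1.94, 1.94 and 2.00 in water, 3.63, 4.06 and 4.07 in bromate and a difference of 1.96 ± 0.14, 3.89-fold. On leaving out any 1 array the 2 probes stayed between 1.87 and 2.11 and passed each time. The RefSeq table lists 8 pseudogenes of Anxa2. The files used here give no probe sequences, so whether the probes also bind such copies was not tested.

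Anxa7, also called synexin, was first known for fusing chromaffin granules. Its brighter probe read 1.33, 1.36 and 1.78 in water and 2.58, 3.01 and 2.91 in bromate, a difference of 1.34 ± 0.17, 2.54-fold. The dimmer probe had less spread, with 0.86, 0.76 and 0.92 in water and 1.98, 2.02 and 1.90 in bromate. Its difference was 1.12 ± 0.08 (adjusted p = 0.0023), and it was the only one of the 11 probes that rose in which bromate replicate 1 was not the lowest bromate array. Both probes passed without any 1 array. The table lists 4 pseudogenes of Anxa7, with the same limit.

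Anxa5 encodes the protein that binds phosphatidylserine on dying cells and on activated platelets. Its brighter probe read 1.70, 1.75 and 1.91 in water and 2.60, 3.27 and 2.97 in bromate, and the groups were 0.69 apart. The difference was 1.16 ± 0.18, 2.24-fold, and that of the dimmer probe 1.17 ± 0.18, 2.25-fold. The bromate animals spread more than the water animals here, with an SD of 0.33 against 0.11 in the brighter probe. The call of the brighter probe did not hold without water replicate 2 (adjusted p up to 0.0598), nor that of the dimmer probe without water replicate 2 or bromate replicate 3 (adjusted p up to 0.0577).

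Anxa3, an annexin abundant in neutrophils, had 3 probes. The brightest read 1.12, 1.38 and 1.20 in water and 2.06, 2.44 and 2.43 in bromate, with no overlap. The 3 differences were 1.08 ± 0.14, 0.96 ± 0.13 and 1.09 ± 0.22, from the brightest to the dimmest probe, or 2.11-fold, 1.95-fold and 2.12-fold. The first and second passed on leaving out any 1 array. The dimmest probe kept its call only without bromate replicate 1 among the 6 arrays left out in turn, with adjusted p up to 0.0796.

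Anxa1, which is induced by glucocorticoids and damps inflammation through formyl peptide receptors, read 3.45, 3.52 and 3.44 in water and 4.24, 4.39 and 4.62 in bromate by its brighter probe. The water animals had an SD of 0.04 and the groups were 0.72 apart. The difference was 0.95 ± 0.11, 1.93-fold, and 0.74 ± 0.11, 1.67-fold, by the dimmer probe. The dimmer probe lost its call without water replicate 2 or bromate replicate 2 (adjusted p up to 0.0549), while the brighter probe passed without any 1 array.

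In 10 of the 11 probes that rose, bromate replicate 1 had the lowest of the 3 bromate values. These probes belong to 5 genes, and probes of 1 gene share their RNA. The share of all probes with bromate replicate 1 lowest is not given here, so the count is not read as particular to annexins. Bromate replicate 1 also had the lowest summed signal of macrophage markers in the bromate group, 5.21 against 8.59 and 7.77 on bromate replicates 2 and 3, with 5.29 to 5.36 in water. Within the group it was likewise lowest for fibroblast, lymphocyte and urothelium markers and highest for proximal tubule and collecting duct markers. For podocyte, neutrophil and endothelium markers it lay between bromate replicates 2 and 3. Of the 6 measured macrophage markers Cd14 rose and 5 did not pass. Among all genes with a symbol 8.76% rose. Of 7 neutrophil markers 6 had a named probe and 3 were measured. Csf3r rose, and S100a8 (1.13, adjusted p = 0.0594 by limma) and S100a9 (0.97, adjusted p = 0.0718) did not pass. All 3 measured neutrophil markers had an unadjusted p under 0.05 by limma, and the share of all genes that did is not given here. Cxcr2, Elane and Mmp8 were not well above background on any array. The summed neutrophil signal was 0.443 to 0.652 in water and 1.16, 0.715 and 1.35 on bromate replicates 1, 2 and 3. The part of these cells in the annexin differences was not tested.

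The stretches before the start of 4 annexin genes are printed. These are the windows with a motif match among the genes that rose or fell, Anxa10 by a call near background only. RefSeq promoter windows of build GRCr8, 250 bases before to 50 bases after 1 annotated start, were at hand for 8 of the 10 genes, and Anxa6 and Anxa13 had none. Both strands were searched for 5 motifs. The AP-1 motif was written as TGANTCA. The core of the antioxidant response element was TGACNNNGC. The STAT motif was TTCNNNGAA. The TATA box was searched as TATAAA. The CCAAT box was searched as its own letters. The AP-1 and antioxidant motifs can share bases, which they did not do in these windows. Only the 250 bases before the start are shown, with matches in capitals and all other bases in lower case.
Anxa2, GRCr8 chr8:78986002-78986251, plus strand: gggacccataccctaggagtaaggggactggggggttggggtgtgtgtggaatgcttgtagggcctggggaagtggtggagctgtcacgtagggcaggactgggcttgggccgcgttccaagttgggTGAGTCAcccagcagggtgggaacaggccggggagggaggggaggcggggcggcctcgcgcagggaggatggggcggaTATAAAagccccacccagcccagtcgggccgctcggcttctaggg
Anxa1, GRCr8 chr1:227303733-227303982, minus strand: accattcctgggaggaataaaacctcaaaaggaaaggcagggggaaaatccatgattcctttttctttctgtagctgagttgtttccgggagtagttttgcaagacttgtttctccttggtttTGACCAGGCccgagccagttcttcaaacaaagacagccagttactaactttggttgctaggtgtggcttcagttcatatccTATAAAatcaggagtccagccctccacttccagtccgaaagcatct
Anxa7, GRCr8 chr15:3870790-3871039, plus strand: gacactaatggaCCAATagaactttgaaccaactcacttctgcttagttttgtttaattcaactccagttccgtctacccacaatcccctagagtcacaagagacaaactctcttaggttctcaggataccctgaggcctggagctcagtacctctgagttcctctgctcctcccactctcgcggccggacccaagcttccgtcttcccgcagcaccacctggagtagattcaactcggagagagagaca
Anxa10, GRCr8 chr16:32504775-32505024, plus strand: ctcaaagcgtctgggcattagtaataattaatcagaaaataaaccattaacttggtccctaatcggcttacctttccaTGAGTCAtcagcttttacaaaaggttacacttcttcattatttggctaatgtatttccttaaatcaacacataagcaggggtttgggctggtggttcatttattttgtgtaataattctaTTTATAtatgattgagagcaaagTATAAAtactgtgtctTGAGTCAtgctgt

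Anxa2 held 1 AP-1 match, TGAGTCA, that begins at position -123 (the start base being 0), and a TATA box at -45. Anxa10 held the same AP-1 letters at -172 and at -13, and TATA matches at -52 (on the other strand) and -29. Its probe was near background and entered the test through the water group, and its call was lost whichever array was left out. An AP-1 match was present in 7.3% of all 33469 promoter windows. Anxa1 held the antioxidant response element core at -127, as TGACCAGGC, a motif present in 12.1% of all windows, and a TATA box at -46. TATA letters were present in 14.2% of all windows. Anxa7 held a CCAAT box at -238, as did Anxa4 on the other strand at -11, against 37.5% of all windows. The windows of Anxa3, Anxa5 and Anxa11 held none of the 5 motifs, and no annexin window held the STAT letters, which 8.9% of all windows did. The windows also differed in base composition: GC content was 35.7% for Anxa10 and 45.0% for Anxa1, below the median of 51.7% over all windows, and 54.3% to 68.0% for the other 6. A match describes the letters of the window and is not a measured binding site.

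Anxa4, an annexin of secretory and tubule epithelium, had bromate values just above the water values. Its brighter probe read 2.24, 2.14 and 2.34 in water and 2.41, 2.58 and 2.49 in bromate, and the groups were 0.07 apart. The difference was 0.25 ± 0.09 and did not pass (adjusted p = 0.121), nor did that of the dimmer probe, 0.20 ± 0.10.

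Anxa11, whose long tail tethers RNA granules to lysosomes, had differences below 0 that did not pass. Its brighter probe read 5.67, 5.72 and 5.81 in water and 5.68, 5.43 and 5.51 in bromate, where bromate replicate 1 lay among the water values. The difference was -0.19 ± 0.10, and -0.33 ± 0.10 by the dimmer probe, whose groups did not overlap. The adjusted p was 0.229 and 0.0714.

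Anxa6, the annexin with a duplicated core, spread widely among the bromate animals. Its brighter probe read 1.32, 1.03 and 1.35 in water and 0.58, 0.98 and 1.60 in bromate, so bromate replicate 1 was below and bromate replicate 3 above every water animal. The dimmer probe had the same order of arrays within bromate, -1.82, -1.50 and -0.74, against -1.11, -1.29 and -0.81 in water. The 2 probes share their RNA and are not separate evidence. The differences were -0.19 ± 0.27 and -0.28 ± 0.29 and did not pass, and without bromate replicate 1 that of the brighter probe was 0.05. The summed signal of fibroblast markers was likewise lowest on bromate replicate 1, at 7.36, against 18.9 and 18.8 on bromate replicates 2 and 3 and 11.8 to 14.8 in water. Lum, also listed for fibroblasts, lacked a signal well above background throughout. Of 5 measured fibroblast markers 0 passed by limma and 1 had an unadjusted p under 0.05. How often all genes reached that unadjusted p is not given here, so this count is not read further. The part of fibroblasts in the spread of Anxa6 was not tested.

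Anxa10, an annexin best known from the stomach, read -3.60, -4.62 and -4.15 in water and -4.98, -5.71 and -5.40 in bromate. Its probe was well above background on all 3 water arrays and not on any bromate array, so it entered the test only through the group in which it was brighter. With bromate readings raised to a floor, it was 1.63-fold lower in bromate over all 6 arrays under the main scaling. For this estimate each bromate reading was replaced by the dimmest signal still well above background on its array, where that was higher. The estimate is not a strict bound, since a reading that is not well above background can lie above that floor. The measured difference was -1.24 ± 0.31 (adjusted p = 0.0479). It lost its call whichever of the 6 arrays was left out (adjusted p 0.0577 to 0.131). The difference was -0.20 with normexp background correction and quantile normalization (adjusted p = 0.317). That setting adds an offset of 50 to each signal, which draws differences of dim probes towards 0.

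**Figure D2:**
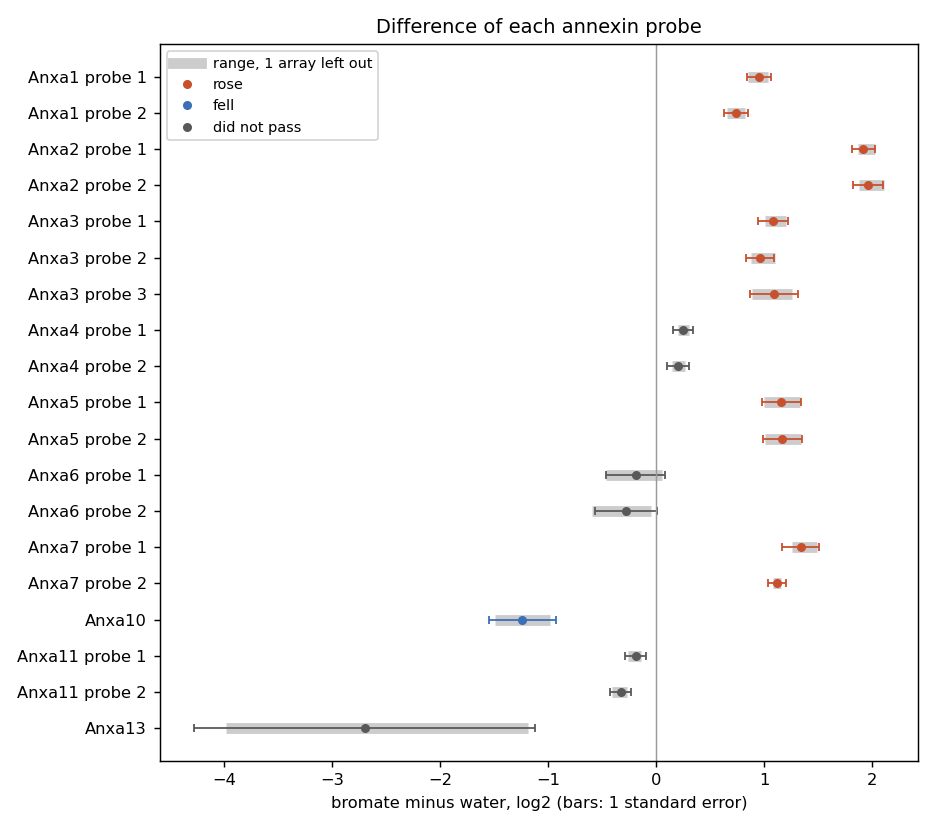
Difference between bromate and water for the 19 annexin probes (horizontal axis, log2; points with bars of 1 standard error), coloured by whether the probe rose, fell or did not pass, with a grey band for its range when each of the 6 arrays is left out in turn. The band of Anxa2 runs from 1.87 to 2.11 over its 2 probes, that of Anxa13 from -3.98 to -1.19.

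Anxa13, a lipid-anchored annexin of intestinal and kidney epithelium, spread over a wide range among the water animals. It read 0.55, -2.93 and -5.04 in water and -3.31, -6.89 and -5.33 in bromate. Water replicate 1 stood far above all other arrays and the groups overlapped. The probe was well above background on water replicates 1 and 2 and on bromate replicate 1 only, so the other 3 readings have no order among themselves. The fitted difference of -2.70 ± 1.58 did not pass (adjusted p = 0.287), and its size is not exact because it includes those 3 readings. It was -1.19 without water replicate 1, which was also the array alone on its slide, and -3.98 without water replicate 3.

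The genes nearest to Anxa13 were looked up after its values had been seen, by the root mean square difference of gene-centred log2 values over the 6 arrays among 11572 genes. They were Tff3, a trefoil peptide of mucous epithelia (0.42), Cyp2c24, a cytochrome P450 (0.67), and Gc, the vitamin D binding protein (0.68). Since 3 of the 6 Anxa13 readings were not well above background, these distances and their order rest in part on background readings. Tff3 read 7.78, 4.78 and 2.14 in water and 3.46, 1.04 and 2.56 in bromate. As in Anxa13, water replicate 1 was the highest array, followed by water replicate 2. None of the 3 passed the test between groups (adjusted p 0.277 to 0.393).

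**Figure D3:**
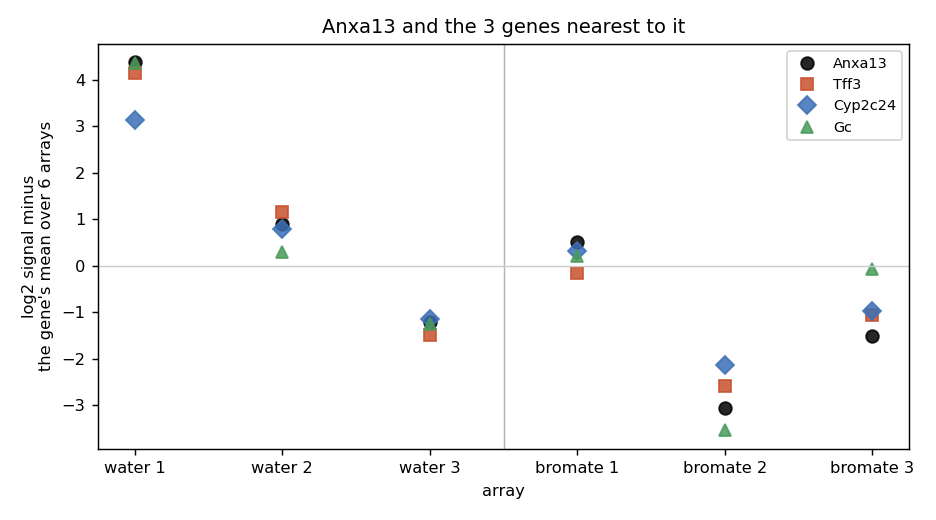
Level of Anxa13, Tff3, Cyp2c24 and Gc on each of the 6 arrays (vertical axis, log2 signal minus the gene's mean over the 6 arrays; 1 point per gene and array). All 4 genes were highest on water replicate 1. The Tff3 points lie closest to those of Anxa13 by that measure, though Anxa13 was not well above background on water replicate 3 and bromate replicates 2 and 3.

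For Anxa2, the annexin with the largest difference among those well above background on all arrays, the same measure gave Slc25a24, a mitochondrial carrier of ATP (0.09), Elf3, an epithelial transcription factor (0.11), and Cd44, the hyaluronan receptor (0.12). Slc25a24 read 0.06, -0.05 and -0.07 in water and 1.76, 1.89 and 1.84 in bromate. The differences of the 3 genes were 1.85 ± 0.08, 1.75 ± 0.11 and 2.10 ± 0.15. They are fixed by the choice of genes, since likeness was measured over both groups.

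Partners of annexins and other genes of calcium-dependent membrane binding and repair were taken from a list of 40 genes. Of these, 27 were measured, 8 had no named probe and 5 were too dim. By the brightest probe of each gene 9 rose and 4 fell, against 8.76% and 8.54% of the 11572 genes with a symbol, and 14 did not pass. The median difference was 0.06 over the list and -0.02 over all genes with a symbol. The list was drawn up with earlier results of these data known. Without any 1 array, 3 to 5 rose and 1 to 5 fell. In the same fits 2.31% to 5.46% of all probes rose, against 7.19% with all 6 arrays, and 785 to 2310 fell, against 2873.

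S100 proteins that bind annexin tails led the list. S100a10, the partner of Anxa2, read 2.64, 2.52 and 2.45 in water and 4.57, 4.78 and 4.62 in bromate, a rise of 2.12 ± 0.10, 4.35-fold. That stood beside 1.92 and 1.96 for the 2 probes of Anxa2. S100a11, the partner of Anxa1, read 1.12, 0.93 and 1.07 in water and 2.37, 2.90 and 2.63 in bromate, a rise of 1.60 ± 0.15, 3.02-fold, beside 0.95 and 0.74 for the 2 probes of Anxa1. Whether partner and annexin differed in their response was not tested. S100a6 rose by 1.42 ± 0.30 and S100a4 by 0.55 ± 0.13, but each kept its call without only 1 of the 6 arrays (adjusted p up to 0.121). The second probe of S100a4 did not pass (0.51, adjusted p = 0.0544). S100a10 and S100a11 passed without any 1 array. Fpr1, which encodes a formyl peptide receptor, had 2 probes that were not well above background on any array, and Fpr2 had no named probe.

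Of the copines, other calcium-dependent membrane binders, Cpne8 rose by 1.26 ± 0.08, 2.40-fold, and passed without any 1 array. Cpne3 rose by 0.48 ± 0.10. Cpne6 fell, with a fitted difference of -1.17. It was well above background on all 3 water arrays and on 1 bromate array, so the size of its difference rests in part on background readings, and it entered the test through the water group. Cpne1, Cpne5 and Cpne9 did not pass. Plat, which encodes tissue plasminogen activator, rose by 0.45 ± 0.11 by its brighter probe, while its second probe did not pass (0.39, adjusted p = 0.114). Capns1, the small subunit of calpain, rose by 0.39 ± 0.09. Pdcd6ip, an ESCRT-associated protein named after its values were seen, rose by 0.37 ± 0.08 by its brightest probe, while its other 6 probes did not pass. Cpne3, Cpne6, Plat, Capns1 and Pdcd6ip each kept their call in 0 to 2 of the 6 fits without 1 array.

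Among the genes that fell, Cav1, the main coat protein of caveolae, the small pits of the plasma membrane, had the largest difference. It read 1.67, 1.59 and 1.89 in water and 0.32, 0.40 and 0.59 in bromate. It fell by 1.28, 2.42-fold, and its other 2 probes differed by -1.14 ± 0.26 (adjusted p = 0.0385) and -0.64 ± 0.18 (adjusted p = 0.065). Cav2 fell by 0.77 and Pacsin2, which bends caveolar necks, by 0.40. Cav1 passed without any 1 array, Cav2 and Pacsin2 without only 1 of the 6. Endothelial cells are rich in caveolae, and the summed signal of 6 endothelial markers was 28.0 to 37.7 in water and 22.8 to 24.7 in bromate, with Emcn lower and 5 that did not pass. The part of these cells in the Cav1 and Cav2 differences was not tested.

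**Figure D4:**
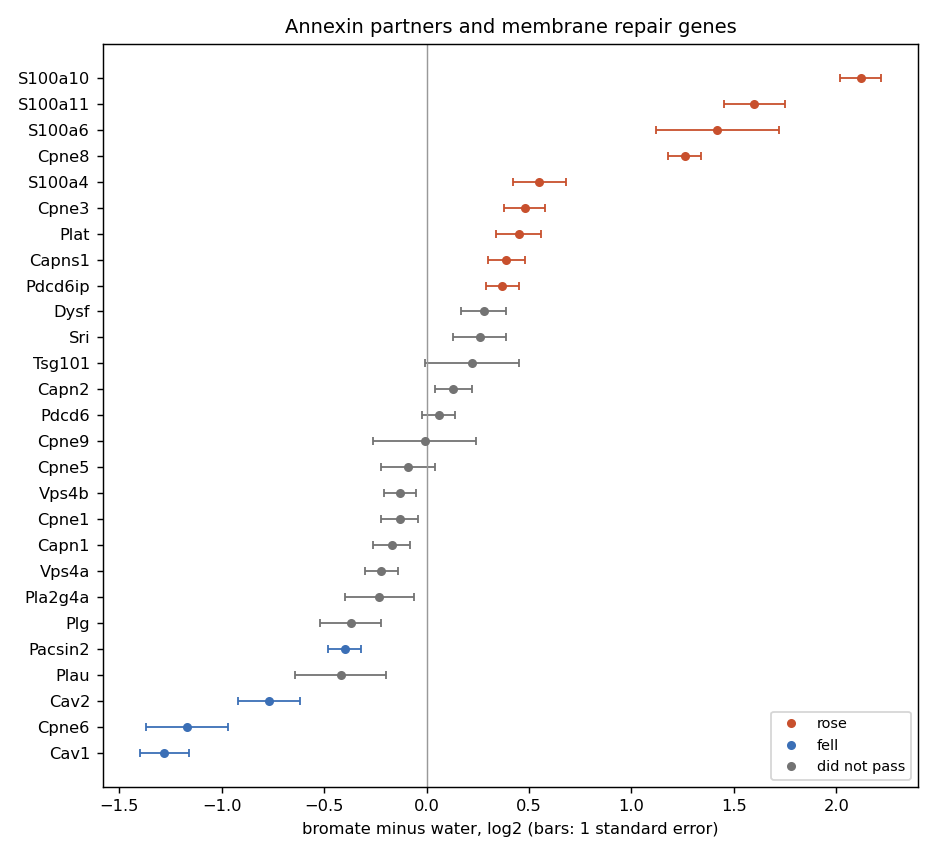
Difference between bromate and water for the 27 measured partner and membrane repair genes (horizontal axis, log2; points with bars of 1 standard error), coloured by whether the gene rose, fell or did not pass. S100a10, S100a11, S100a6 and Cpne8 stand highest, from 2.12 down to 1.26, and Cav1 lowest.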

How the data were processed

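Renal cortex RNA of 6 rats was read on 1-colour Agilent arrays. Per the submitters' processing notes, signals were extracted with Agilent Feature Extraction 10.7. Per the file headers, the deposited processed signal is an intensity that was background-subtracted and detrended within the array but not scaled between arrays, on a design annotated for rn4. The authors' deposited value table holds a linear ratio. Set against the scanner files, each column was the processed signal over the 75th percentile of its array. The worst probe with a ratio above 0.01 was off by 0.634% to 0.792%, with column medians of 0.1025 to 0.1054. It is not centred by gene and runs in the direction of the signal, which no label states.

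The log2 processed signal was reduced by the log2 75th percentile of the array over non-control probes. The 1439 control spots and the outlier spots were left out. Probes well above background on at least 3 of 6 arrays were tested, 37783 less 2 that were outliers on every array of a group. All 19 annexin probes passed, with 0 outlier flags. Of 61537 probes 28206 had 1 symbol through the RefSeq table (assembly GRCr8) and 33331 had none. Groups were compared probe by probe in limma 3.58.1 (lmFit, eBayes; R 4.3.3 with version 1.17.8 of data.table), with Benjamini-Hochberg adjustment over all probes tested. The script was tested on simulated data. The brightest probe stood for a gene in the partner and marker lists.

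The members and lists were chosen with earlier results of these data known. Named genes were all annexin probes, the 12 partner genes with the largest difference among those that passed plus S100a10, S100a11, S100a6, Fpr1 and Fpr2, and the 3 genes nearest to Anxa2. Protein features were not analysed here. Alternatives were other scalings, background correction, filters, probe rules and variance models, the value table, slide and replicate number as blocks, and each array left out in turn.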

Additional observations from a re-analysis of the deposited data

How the results depend on the processing

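Over 18 alternatives the differences of the 19 annexin probes kept their direction in all but 1 of 331 values and kept their side of the threshold in 304, while 27 no longer passed and 0 newly passed. The exception was Anxa6, whose brighter probe was 0.05 without bromate replicate 1 and -0.46 without bromate replicate 3. The 331 values include repeats. The comparison on 1 slide, the slide block and the fit without water replicate 1 are the same fit, and the value table repeats the main scaling. The count of annexin probes that rose was 11 and became 5 with the brightest probe per gene, which tests 1 probe for each of the 10 genes, and 7 to 11 without any 1 array. The count that fell, which is Anxa10, was 0 by limma with quantile normalization, with normexp, without a filter on dim probes, with a filter on all 6 arrays (where it was not tested), with the brightest probe per gene, with an intensity trend, on 1 slide alone or with slide as a block, and without any 1 array. Its unadjusted p by limma was under 0.05 in 16 of the 17 alternatives that tested it, while its call was lost in 13. These alternatives reuse the same arrays, and the probe entered the test through the water group, so the counts support nothing by themselves. The 1 that fell remained with the detected-probe percentile, the value table, array weights and the replicate block.

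Without a filter on dim probes 1091 of all probes rose and 1023 fell, against 2717 and 2873, and among partner genes 3 rose and 1 fell. Without any 1 array 871 to 2064 of all probes rose and 785 to 2310 fell, and 3 to 5 and 1 to 5 partner genes. With slide as a block, the same comparison as on the slide with both groups, 5 partner genes rose, while 5.46% of all probes did. With the replicate block 829 of all probes rose and 757 fell, 10 annexin probes rose, and 3 partner genes rose and 2 fell. Deviations of same-numbered arrays correlated across probes at 0.06, 0.07 and -0.09. These values show no clear pairing by replicate number but cannot settle how the animals were matched. The causes of these changes were not tested. Signal over background limits Anxa10 and Anxa13.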
